A study of Mus musculus with 2 samples.

Results

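The 10 genes described here carry out or control MHC class I antigen presentation. They are the class I heavy chains H2-K1 and H2-D1, the light chain B2m, the peptide transporter subunits Tap1 and Tap2, the loading chaperone Tapbp, the inducible proteasome subunits Psmb8, Psmb9 and Psmb10, and the transactivator Nlrc5. They were taken by name as rows of the deposited expression table, and all 10 were among its 15121 genes. The data are single-cell transcriptomes from a syngeneic mouse melanoma model with mutated Nras, named NILER in the labels, whose parental line NIL carries Nras Q61R and was exposed to ultraviolet radiation to raise its mutation load. Both libraries are labelled as T cells of day 5. One library is from the untreated group, and the other from the group given trametinib, an inhibitor of the kinase MEK, together with BGB-283, an inhibitor of RAF kinases. Each group was represented by 1 library, so no spread between animals could be estimated, no test was made, and treatment and library cannot be told apart. The labels give neither the number of animals nor the way in which the T cells were obtained.

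MHC class I molecules display short peptides from the inside of a cell to CD8 T cells. The peptides are cut by the proteasome, in which the interferon-inducible subunits Psmb8, Psmb9 and Psmb10 can take the places of the standard catalytic subunits Psmb5, Psmb6 and Psmb7, and are carried into the endoplasmic reticulum by the Tap1 and Tap2 transporter. There Tapbp, also called tapasin, helps to load them onto a heavy chain paired with B2m. Nlrc5 acts in the nucleus on the promoters of these genes, which interferon gamma is known to raise in tumour and stromal cells and which lymphocytes express without it.

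Cells were assigned to 6 gates by their unique molecular identifiers (UMIs, which count captured RNA molecules) of marker genes, with levels given as CPM, counts per 1000000 UMIs of the gate. The untreated and treated libraries gave 4262 and 4872 CD8 T cells, 922 and 496 CD4 T cells without Foxp3, and 489 and 435 Foxp3-positive T cells. They also gave 308 and 87 dendritic cells, 178 and 155 macrophages, and 96 and 64 collagen-expressing cells, although the libraries are labelled as T cells. The gates held 68.8% of the 9096 untreated and 79.1% of the 7720 treated cells kept, and the libraries held 95349992 and 58318786 UMIs. The libraries shared 35 cell barcodes. Of markers that were not used for gating, Ikzf2, a marker of regulatory T cells, was seen in 93.0% and 95.4% of Foxp3-positive T cells, but also in 39.9% and 68.8% of CD8 T cells. Irf8 was seen in 93.5% and 71.3% of dendritic cells and in 31.0% and 54.5% of CD8 T cells, so neither is particular to its gate. Cd68 was seen in 81.5% and 89.0% of macrophages. The collagen gate is named by its rule alone. Sparc, which was not used for gating, was seen in all of its cells in each library, the fibroblast marker Dcn in 15.6% and 20.3% of its cells, and the melanocyte marker Pmel had 2 UMIs and 1 UMI.

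In the treated library the genes of the pathway did not move as one. Nlrc5 was higher in every gate, while Psmb8 and Psmb9 were at least 1.5-fold lower in CD8 T cells, CD4 T cells and macrophages, Psmb10 was so in CD8 and CD4 T cells, and all 3 were higher in collagen-expressing cells. Heavy chain levels differed little in CD4 and Foxp3-positive T cells and were higher in macrophages and in collagen-expressing cells. In collagen-expressing cells all 10 genes were higher, by at least 1.47-fold. Without the most deeply sequenced cells few cells were left in this gate. There H2-K1, H2-D1, Tap2 and Psmb8 turned to lower, and no gene was counted as higher. A gene was counted as apart where the libraries differed by at least 1.5-fold and 1 of them had at least 50 UMIs.

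Read against all genes, these counts were not large outside the collagen gate. Among CD8 T cells 1 of the 10 genes was counted as higher and 3 as lower, where 31.4% and 19.0% of all genes were, and 50.5% in either direction. Among CD4 T cells the counts were again 1 higher and 3 lower, beside 22.7% and 16.8% of all genes, or 39.5% in either direction. Among Foxp3-positive T cells 1 was higher and 0 were lower, beside 18.0% and 11.3%, or 29.3% in either direction. Among dendritic cells 3 were higher and 1 was lower, beside 19.0% and 17.0%, or 36.0% in either direction. Among macrophages 3 of the 9 genes with enough UMIs were higher and 2 were lower, beside 20.9% and 21.4%, or 42.2% in either direction. Among collagen-expressing cells 7 of 9 were higher and 0 were lower, beside 27.9% and 10.2% of all genes, or 38.1% in either direction.

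**Figure D1:**
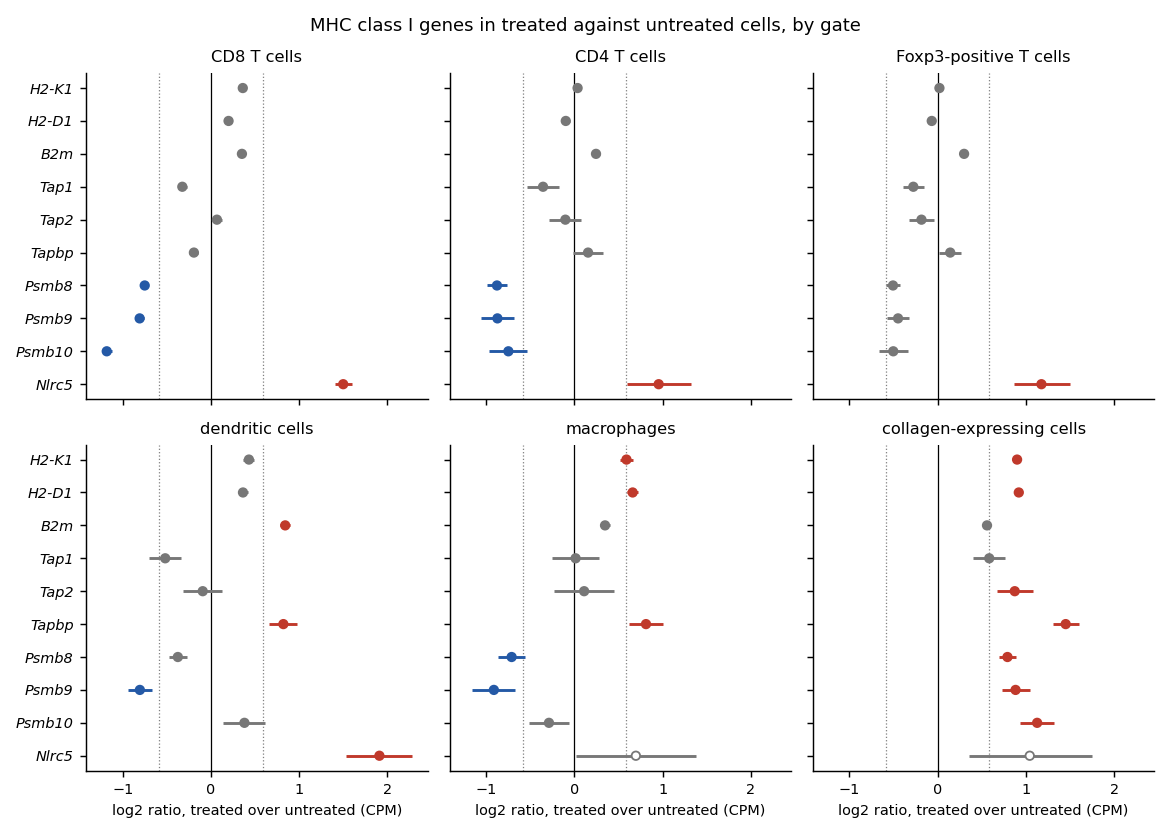
Log2 ratio of CPM in the treated over the untreated library for the 10 genes in each of the 6 gates, with 95% intervals that cover counting error only. Red points are at least 1.5-fold higher and blue points at least 1.5-fold lower (dotted lines), open points have under 50 UMIs in each library, and all 10 points of the collagen-expressing cells lie to the right of 0.

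The heavy chains and the light chain were measured most precisely. H2-K1 was at 2716 CPM in untreated and 3487 CPM in treated CD8 T cells, a ratio of 1.28 (95% interval 1.27 to 1.29, counting error only, as for all intervals below). It was at 3860.3 and 3959.9 CPM in CD4 T cells and at 4913 and 4980.4 CPM in Foxp3-positive T cells, where the intervals of the ratio reached down to 1.00 and 0.99. In dendritic cells H2-K1 was at 1863 and 2509.5 CPM, in macrophages at 1599 and 2409 CPM, and in collagen-expressing cells at 2296 and 4283 CPM. Thus the difference was small in the T cell gates and largest in collagen-expressing cells, at 1.87-fold (1.82 to 1.91).

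H2-D1 followed a similar order with lower values in T cells. It was at 2079 and 2386 CPM in CD8 T cells, at 2816 and 2633 CPM in CD4 T cells, and at 3719 and 3549 CPM in Foxp3-positive T cells. It was at 2089.7 and 2687 CPM in dendritic cells, at 1906 and 3014 CPM in macrophages, and at 2712 and 5127 CPM in collagen-expressing cells, the highest H2-D1 level of the 12 measured. H2-K1 and H2-D1 are close relatives, and how reads that match several class I genes were counted is not given in the sources used here, so the division of UMIs between them is uncertain. The ratio of H2-K1 to H2-D1 UMIs was 1.31 and 1.46 in CD8 T cells and 0.85 and 0.84 in collagen-expressing cells.

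B2m, whose protein pairs with every class I heavy chain, was higher in all 6 gates of the treated library. It was at 2208 and 2816 CPM in CD8 T cells, at 2501 and 2965 CPM in CD4 T cells, and at 3379 and 4157 CPM in Foxp3-positive T cells. It was at 1997 and 3578 CPM in dendritic cells, at 2724 and 3467 CPM in macrophages, and at 2774 and 4087 CPM in collagen-expressing cells. Only the dendritic cells passed 1.5-fold, at 1.79 (1.72 to 1.86). In Foxp3-positive T cells B2m was 1.23-fold higher (1.2 to 1.26) and H2-K1 1.01-fold (0.99 to 1.04), and the ratio of H2-K1 to B2m UMIs was 1.45 untreated and 1.2 treated.

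The stretches before the transcription starts of H2-K1, H2-D1, B2m and Tap1 are shown because these promoters are where Nlrc5 is known to act, through proteins bound to an X box and a Y box. The sequences are the 250 bases before the annotated start in RefSeq (GRCm38.p6), at chr17:34000348-34000597, minus strand for H2-K1, chr17:35262844-35263093, plus strand for H2-D1, chr2:122147437-122147686, plus strand for B2m and chr17:34187306-34187555, plus strand for Tap1. Capitals mark matches, on either strand, of TGACG (a core of the X2 box), ATTGG (an inverted CCAAT, the core of the Y box), GAAA and GAAA with 2 letters between them (an interferon-stimulated response element) and GGG and TTTCC with 2 letters between them (an NF-kB site).
H2-K1: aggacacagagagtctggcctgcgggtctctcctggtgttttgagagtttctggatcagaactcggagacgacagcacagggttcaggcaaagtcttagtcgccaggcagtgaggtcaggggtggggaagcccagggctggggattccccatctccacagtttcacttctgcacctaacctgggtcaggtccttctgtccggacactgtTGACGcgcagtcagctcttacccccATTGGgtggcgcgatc
H2-D1: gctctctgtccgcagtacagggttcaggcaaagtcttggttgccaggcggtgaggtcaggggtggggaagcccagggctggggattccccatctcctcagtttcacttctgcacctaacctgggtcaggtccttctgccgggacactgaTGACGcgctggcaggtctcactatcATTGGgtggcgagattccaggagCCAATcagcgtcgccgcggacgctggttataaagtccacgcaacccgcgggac
B2m: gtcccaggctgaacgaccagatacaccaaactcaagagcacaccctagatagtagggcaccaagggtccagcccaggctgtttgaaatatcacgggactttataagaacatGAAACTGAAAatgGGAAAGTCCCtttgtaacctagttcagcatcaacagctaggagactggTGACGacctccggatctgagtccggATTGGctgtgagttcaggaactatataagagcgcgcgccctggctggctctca
Tap1: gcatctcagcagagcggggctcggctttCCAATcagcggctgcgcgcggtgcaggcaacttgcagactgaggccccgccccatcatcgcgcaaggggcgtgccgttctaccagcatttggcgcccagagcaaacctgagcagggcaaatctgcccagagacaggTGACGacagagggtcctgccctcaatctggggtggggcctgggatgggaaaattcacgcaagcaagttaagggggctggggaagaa
In H2-K1, H2-D1 and B2m the letters TGACG and ATTGG stand in the same order with 20 letters between them, beginning 41, 101 and 78 bases before the start. This spacing was looked at after the motifs had been found, and 26 of 27025 promoters of the same length (0.0962%) hold it on either strand. H2-K1 and H2-D1 had 113 of 120 letters in common before TGACG and 23 of 30 from TGACG to the end of ATTGG, so they are not independent examples.

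A promoter of this table was found for 8 of the 10 genes, with 2 windows for H2-K1, of which the first is shown, and none for Tap2 and Nlrc5. Over windows of 250 bases before to 50 bases after the start, TGACG was present in 5 of the 8, against 21.0% of all promoters, and ATTGG in 6 of the 8, against 37.9%. The letters searched for as an interferon-stimulated response element were present in B2m alone, against 3.49% of all promoters. Those searched for as an NF-kB site were also in B2m alone, against 1.62%. Other forms of these sites were not searched for, so the other promoters, H2-K1 and H2-D1 among them, may hold them. TTCNNNGAA, an interferon gamma-activated site, was present in Psmb8 alone, against 8.47%. Motifs were searched on both strands, and in B2m the interferon and NF-kB matches lie 139 and 126 bases before the start. Tap1 and Psmb9 are read in opposite directions from starts 226 bases apart, and their windows share 275 bases, so the Tap1 sequence above also holds the start of Psmb9. Their matches of TGACG and of ATTGG are the same sites, each counted under both genes in the counts above. A match describes letters and shows no binding, and no match says only that these letters are not in this window.

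The transporter subunits and tapasin moved separately. Tap1 was at 187 and 149 CPM in CD8 T cells, a ratio of 0.80 (0.77 to 0.83), and was also lower in CD4 T cells, at 203 and 158 CPM, and in Foxp3-positive T cells, at 379 and 313 CPM. It was at 409 and 285 CPM in dendritic cells, at 146 and 147 CPM in macrophages, and at 90.8 and 136 CPM in collagen-expressing cells. Its partner Tap2 was at 140.5 and 147 CPM in CD8 T cells, where the sign of the difference turned when CPM was rescaled, at 171 and 159 CPM in CD4 T cells, and at 281 and 247 CPM in Foxp3-positive T cells. The transporter genes thus passed 1.5-fold in none of the 3 T cell gates. In collagen-expressing cells Tap2 was at 69.5 and 127 CPM, a ratio of 1.83 (1.59 to 2.11), and Tap1 just missed the limit, at 1.499 (1.32 to 1.70).

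The ratio of Tapbp was higher outside the T cell gates, a difference between gates that was not tested. It was at 190.2 and 166 CPM in CD8 T cells, at 180.1 and 201 CPM in CD4 T cells, and at 297 and 328 CPM in Foxp3-positive T cells, differences of under 1.5-fold. In dendritic cells it was at 234 and 414 CPM (1.77-fold, 1.58 to 1.97), and in macrophages at 196 and 345 CPM (1.76-fold, 1.53 to 2.01). In collagen-expressing cells it was at 106 and 291 CPM (2.73-fold, 2.47 to 3.03), the highest ratio of the 9 genes with at least 50 UMIs there.

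The inducible proteasome subunits were lower by at least 1.5-fold in treated CD8 and CD4 T cells, and none of them was in Foxp3-positive T cells. Psmb8, the inducible counterpart of Psmb5, was at 803 and 477 CPM in CD8 T cells, a ratio of 0.59 (0.58 to 0.61). It was at 634 and 345 CPM in CD4 T cells (0.54, 0.50 to 0.59), at 909 and 640.0 CPM in Foxp3-positive T cells (0.70, 0.67 to 0.74), and at 572 and 349 CPM in macrophages (0.61, 0.55 to 0.68). In dendritic cells it was at 1141 and 879 CPM. In collagen-expressing cells the order was the opposite, with 314 and 543 CPM (1.73, 1.62 to 1.85).

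Psmb9, the counterpart of Psmb6, had a similar pattern. It was at 297 and 169.8 CPM in CD8 T cells, at 235 and 128 CPM in CD4 T cells, and at 403 and 295 CPM in Foxp3-positive T cells. It was at 796 and 455 CPM in dendritic cells (0.57, 0.52 to 0.63) and at 264 and 140.1 CPM in macrophages (0.53, 0.45 to 0.63). In collagen-expressing cells it was at 112 and 206 CPM, 1.84-fold higher (1.65 to 2.06).

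Psmb10, the counterpart of Psmb7, was the furthest below its untreated level of the 10 genes in CD8 T cells. It was at 235 and 104 CPM there, a ratio of 0.44 (0.42 to 0.46), at 171 and 102 CPM in CD4 T cells (0.60, 0.51 to 0.69), and at 228 and 161 CPM in Foxp3-positive T cells (0.71, 0.63 to 0.79). In macrophages it was at 218 and 178 CPM (0.82, 0.70 to 0.96), under the limit, and in dendritic cells it was higher, at 134 and 174 CPM (1.30, 1.10 to 1.53). In collagen-expressing cells it was at 68.5 and 149.7 CPM, 2.18-fold higher (1.91 to 2.50). In CD8 T cells and collagen-expressing cells the intervals of all 3 inducible subunits lie on opposite sides of 1.

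The balance of inducible to standard subunits is given as a ratio of UMIs of the 2 genes, compared between libraries only. Psmb10 to Psmb7 in CD8 T cells was 2.47 untreated (2.38 to 2.57) and 1.26 treated (1.20 to 1.32), while Psmb8 to Psmb5 was 3.58 and 3.08 and Psmb9 to Psmb6 was 1.44 and 1.37. The 3 standard subunits were lower in CD8 T cells as well, with a median log2 ratio of -0.54 beside 0.13 for all genes. Among them Psmb6 alone passed 1.5-fold, at 207 and 124 CPM. In cycling CD8 T cells Psmb8 to Psmb5 was 3.09 and 3.10 and Psmb9 to Psmb6 was 1.36 and 1.503, so these shifts of the gate were not present there, while Psmb10 to Psmb7 was 1.78 and 1.00. In CD4 T cells the ratios were 4.11 and 2.59 for Psmb8, 1.64 and 1.22 for Psmb9, and 1.98 and 1.40 for Psmb10. In collagen-expressing cells they went the other way, from 1.36 to 2.38 for Psmb8 to Psmb5, from 0.37 to 0.74 for Psmb9 to Psmb6, and from 0.51 to 1.14 for Psmb10 to Psmb7. There the standard subunits hardly differed, with Psmb5 at 230.1 and 228 CPM. In macrophages Psmb8 to Psmb5 was 2.49 and 1.79 and Psmb9 to Psmb6 was 1.07 and 0.66, but Psmb10 to Psmb7 was higher when treated, at 1.56 and 2.23.

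**Figure D2:**
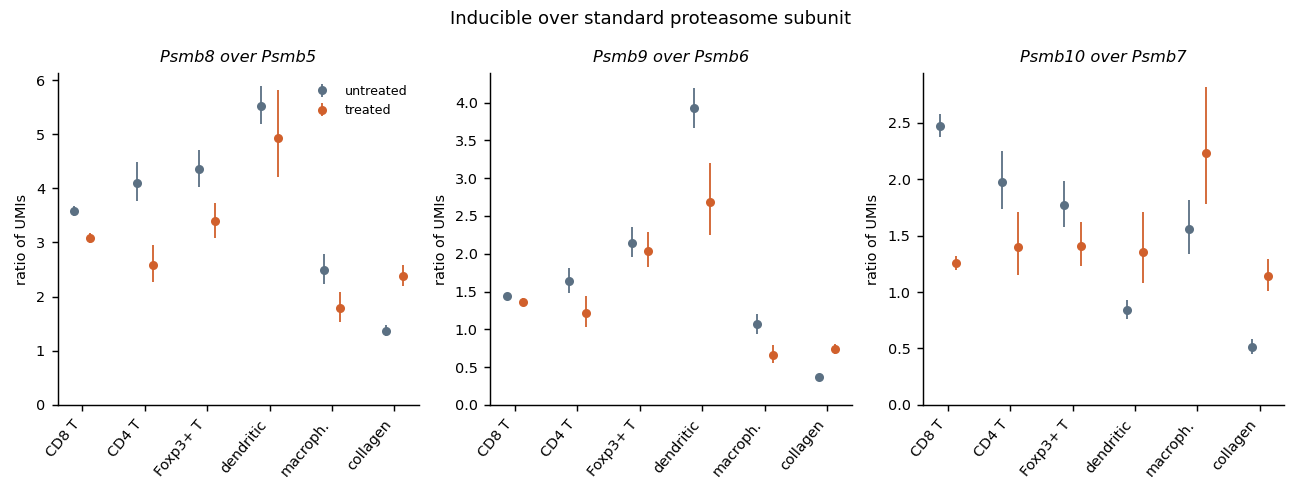
Ratio of UMIs of each inducible proteasome subunit to its standard counterpart, by gate and library, with 95% intervals that cover counting error only. In CD8 T cells the ratio of Psmb10 to Psmb7 is 2.47 untreated and 1.26 treated, and in collagen-expressing cells all 3 ratios are higher in the treated library.

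Nlrc5, the transactivator of class I genes, was higher in treated cells of all gates. In CD8 T cells it had 1150 and 3161 UMIs, at 31.9 and 90.1 CPM, a ratio of 2.83 (2.64 to 3.03). It was at 29.6 and 57.4 CPM in CD4 T cells (1.94, 1.51 to 2.49) and at 34.9 and 78.9 CPM in Foxp3-positive T cells (2.26, 1.81 to 2.82). In dendritic cells it was at 27.0 and 101.5 CPM (3.76, 2.90 to 4.86). In macrophages and collagen-expressing cells it had under 50 UMIs in each library, 37 and 41 in the former (1.62, 1.01 to 2.60) and 32 and 45 in the latter (2.06, 1.28 to 3.35). The higher Nlrc5 level of T cells therefore stood beside lower Psmb8, Psmb9 and Psmb10 and beside lower Tap1.

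The CD8 gate held different states in the libraries, and 3 of them were examined separately, by a split chosen after the data were seen. Cycling cells (at least 2 UMIs of Mki67, Top2a, Birc5 and Ccnb2 together) made up 15.3% and 9.24% of it. Of the cells that were not cycling, those with a UMI of Pdcd1, the inhibitory receptor PD-1, made up 14.5% and 57.8% of the gate, and those with none 70.1% and 33.0%. These groups are broad, and cell states within them can also differ between the libraries. Of the 10 genes, 1 was higher by at least 1.5-fold in each state, while 3 were lower in cycling cells, 4 in Pdcd1-positive cells and 3 in Pdcd1-negative cells. For single states the shares of all genes that were higher and lower were 24.7% and 18.0% in cycling, 31.3% and 15.5% in Pdcd1-positive and 32.3% and 16.6% in Pdcd1-negative cells.

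The differences in heavy chains and light chain were not alike in these states. In Pdcd1-positive cells H2-K1 was at 3467 and 3713 CPM, H2-D1 at 2673.5 and 2529 CPM, and B2m at 2808 and 2934 CPM, ratios of 1.07, 0.95 and 1.04. In Pdcd1-negative cells H2-K1 was at 2443 and 3045 CPM, H2-D1 at 1849 and 2064 CPM, and B2m at 2002 and 2507 CPM, ratios of 1.25, 1.12 and 1.25. In cycling cells the ratios were 1.23, 1.13 and 1.31. Untreated Pdcd1-positive cells thus had more of all 3 transcripts than untreated Pdcd1-negative cells, and Pdcd1-positive cells were the larger part of the treated gate. With the treated levels weighted by the states' shares of UMIs in the untreated library, the ratio in the gate was 1.20 for H2-K1, 1.08 for H2-D1 and 1.23 for B2m.

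The lower inducible subunits were present inside each of the 3 states. In Pdcd1-positive cells Psmb8 was at 985 and 490 CPM (0.50, 0.48 to 0.51), Psmb9 at 374 and 169 CPM (0.45, 0.43 to 0.48) and Psmb10 at 239 and 101 CPM (0.42, 0.40 to 0.45). In Pdcd1-negative cells Psmb8 was at 599 and 358 CPM, Psmb9 at 189 and 121 CPM and Psmb10 at 219 and 99.7 CPM, ratios of 0.60, 0.64 and 0.45. In cycling cells the ratios were 0.62, 0.60 and 0.47. Tap1 was at 231 and 153 CPM in Pdcd1-positive cells (0.67, 0.62 to 0.71), where alone among the 3 states it passed 1.5-fold, and by little. Weighted by the untreated shares, the ratios in the gate were 0.59, 0.58 and 0.45 for Psmb8, Psmb9 and Psmb10. Nlrc5 was higher in each state, from 2.40-fold (2.15 to 2.69) in Pdcd1-negative to 2.55-fold (2.20 to 2.97) in cycling cells, and 2.47-fold with the untreated shares.

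**Figure D3:**
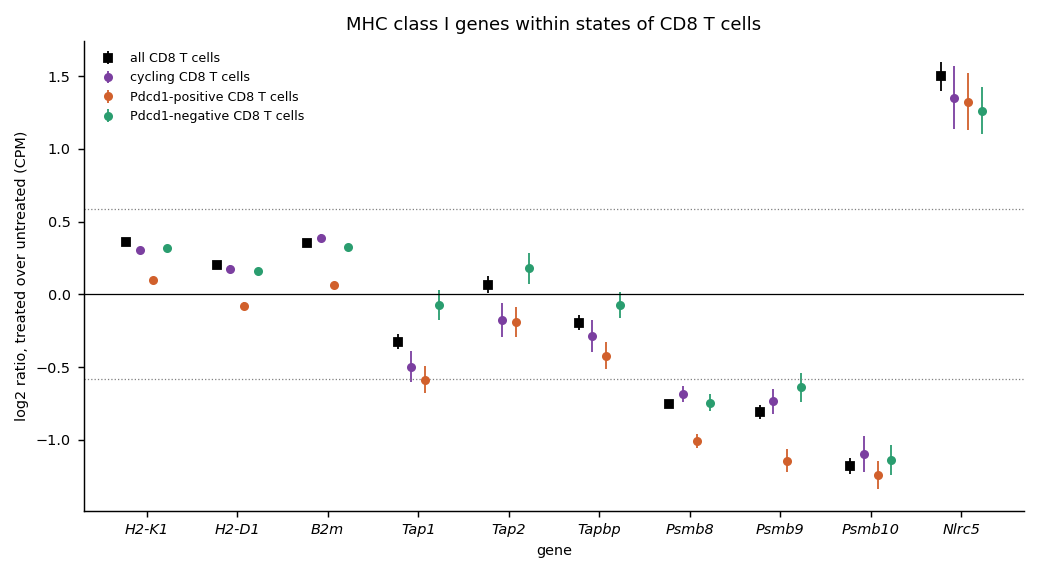
Log2 ratio of CPM in the treated over the untreated library for each gene in all CD8 T cells (squares) and in 3 states of them (circles), with 95% intervals that cover counting error only; dotted lines mark 1.5-fold. Psmb8, Psmb9 and Psmb10 lie under the lower line in all 3 states, while H2-K1 and B2m lie nearest 0 in Pdcd1-positive cells.

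Shares of cells with transcripts of interferon-stimulated genes differed between the libraries in most gates. Cells with at least 3 UMIs of the interferon-stimulated genes Isg15, Ifit1, Ifit3 and Usp18 were 14.0% and 7.02% of CD8 T cells, 9.87% and 9.07% of CD4 T cells, 24.1% and 18.2% of Foxp3-positive T cells, 28.2% and 17.2% of dendritic cells, 37.6% and 20% of macrophages and 33.3% and 46.9% of collagen-expressing cells. The share hardly differed in CD4 T cells and was lower in the treated library in CD8 T cells. These shares were not matched for depth, and a deeper cell reaches 3 UMIs more easily. The median was 17267 and 10638 UMIs in dendritic cells and 48279.5 and 47663 UMIs in collagen-expressing cells. After each CD8 T cell had been thinned to 2000 UMIs, Psmb8 in untreated cells was at 666 CPM where none of these UMIs was found, at 747 CPM with 1 UMI and at 1156 CPM with 2 or more. In treated cells Psmb8 was at 433, 463 and 556 CPM. Psmb10 was at 197, 233 and 427 CPM untreated and at 92.0, 122 and 164 CPM treated. Psmb8 and Psmb10 were lower in treated cells in each of these groups, also among the 3349 and 4087 cells where none was found. At this depth a cell with such transcripts can show none, so the groups are not matched for interferon response. H2-K1 was at 2661 and 3772 CPM in untreated cells with none and with 2 or more, and at 3457 and 4425 CPM in treated cells. The part of interferon exposure in the differences was not tested.

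Dendritic cells differed in make-up as well as in level, and the subsets below were chosen after the data were seen. Cells with at least 2 UMIs of Fscn1 and Ccl22 and none of Xcr1 or Clec9a were 18.2% of untreated and 51.7% of treated dendritic cells, and cells with a UMI of Xcr1 or Clec9a and fewer than 2 of Fscn1 and Ccl22 were 68.2% and 25.3%. Within the 56 and 45 cells of the first kind B2m was at 5029 and 6328 CPM (1.26, 1.19 to 1.33) and Tapbp at 455 and 583 CPM (1.28, 1.06 to 1.54). Within the 210 and 22 cells of the second kind B2m was at 1499 and 1735 CPM (1.16, 1.07 to 1.25) and Tapbp at 203 and 285 CPM (1.40, 1.16 to 1.70). H2-K1, at 1.35 in the whole gate, had a ratio of 1.05 (0.98 to 1.12) in the first kind and 0.89 (0.82 to 0.97) in the second. H2-D1, at 1.29 in the whole gate, was at 0.96 (0.90 to 1.03) and 1.15 (1.07 to 1.23), and Psmb10, at 1.30, was at 0.92 (0.70 to 1.20) and 1.15 (0.87 to 1.52). The direction of these 3 genes in the gate was thus not kept in every kind. Neither B2m, Tapbp nor Psmb9 passed 1.5-fold inside either kind, where Nlrc5 alone did, at 2.59 (1.74 to 3.90) and 1.80 (0.91 to 3.28). The latter ratio rests on 68 and 13 UMIs. In each kind 1 of the 10 genes was higher, beside 15.0% of all genes in the first and 15.6% in the second, and 0 were lower, beside 14.4% and 13.1%.

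Macrophages differed in make-up too, in a subset also chosen after the data were seen, with at least 3 UMIs of C1qa, C1qb and C1qc in 81.5% of untreated and 52.9% of treated cells. In these C1q-expressing cells the heavy chain differences were larger than in the whole gate, with H2-K1 at 1556 and 2830.4 CPM (1.82, 1.72 to 1.92) and H2-D1 at 1804 and 3367 CPM (1.87, 1.77 to 1.96). Tapbp was at 186 and 371 CPM (2.00, 1.70 to 2.34) and Psmb9 at 268 and 148 CPM (0.55, 0.45 to 0.67). There 3 genes were higher and 1 was lower, beside 17.6% and 21.3% of all genes. In the whole gate H2-K1 and H2-D1, at 1.51 (1.44 to 1.58) and 1.58 (1.51 to 1.65), passed the limit narrowly. When UMIs of T cells and B cells were not limited, so that droplets with transcripts of several lineages entered the macrophage gate, 0 genes were higher and 3 were lower. Cells with transcripts of both T cells and macrophages numbered 943 untreated and 356 treated.

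Collagen-expressing cells carried the most RNA, with a median of 48279.5 and 47663 UMIs per cell. The gate allows at most 2 UMIs of Cd3e, Cd3d, Cd3g and Trac per cell, and the summed level of these T cell genes was 7.17 and 8.85 CPM there, against 3783 and 4101 CPM in CD8 T cells. The gate itself differed between libraries. Col1a1 was seen in 5.21% and 20.3% of its cells, the summed level of the 6 collagen genes of the gate was 1089 and 5377 CPM, and cycling cells made up 53.1% and 28.1% of it. Without the 1 untreated and 8 treated cells with at least 3 UMIs of Col1a1 and Col1a2, 7 genes were still higher and 0 lower, beside 27.9% and 10.7% of all genes, with H2-K1 at 2292 and 4087 CPM (1.78, 1.74 to 1.83) and Tapbp at 107 and 287 CPM (2.68, 2.41 to 2.99). Not all of the higher levels were kept without deeply sequenced cells, which made up most of the gate. When the 5% of cells with the most UMIs in each library were left out, 18 and 12 collagen-expressing cells remained, and 0 genes were higher and 1 was lower. A gene with under 50 UMIs in each library could not be counted there. H2-K1 was at a log2 ratio of -0.05 and Psmb8 at -0.43, and H2-D1 and Tap2 also turned to lower. Tapbp, Psmb9 and Psmb10 kept their direction. With each cell thinned to 2000 UMIs, which leaves few UMIs per gene, 2 genes were higher and 0 lower. The median over all cells was nonetheless higher, for H2-K1 at 21.6 untreated and 37.2 treated UMIs per 10000. The markers do not tell stromal from tumour cells here.

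Detection was compared at an equal depth of 2000 UMIs for each cell. Psmb8 was detected in 71.2% of untreated and 55.7% of treated CD8 T cells (93.0% and 85.1% unthinned), and Psmb10 in 33.9% and 17.5% (70.4% and 46.1% unthinned). Psmb8 was detected in 65.5% and 41.6% of CD4 T cells (84.7% and 63.5% unthinned). Nlrc5 was detected in 6.58% and 16.9% of CD8 T cells (22.4% and 44.6% unthinned). H2-K1 and B2m were detected in at least 97.4% of the cells of each T cell gate in each library, so their shares carry no information on the difference. Because all nucleated cells are expected to make class I transcripts, no gate gives the share that free RNA alone would produce.

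Between cells of 1 gate the counted heavy chain level varied far more than between libraries. Part of that spread is counting error of single cells, as CD8 T cells had a median of 6474.5 and 6452 UMIs. In untreated CD8 T cells the 10th percentile, median and 90th percentile of H2-K1 were 13.4, 24.9 and 45.2 UMIs per 10000 UMIs of the cell. In treated CD8 T cells they were 16.8, 34.3 and 54.9. The median of Psmb8 was 6.39 and 3.97 in CD8 T cells and 2.77 and 4.57 in collagen-expressing cells. In dendritic cells the range of B2m widened, from a 90th percentile of 50.8 untreated to 88.7 treated, with medians of 16.8 and 34.4. The ranges from the 10th to the 90th percentile overlapped between libraries for all 10 genes in each of the 6 gates.

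**Figure D4:**
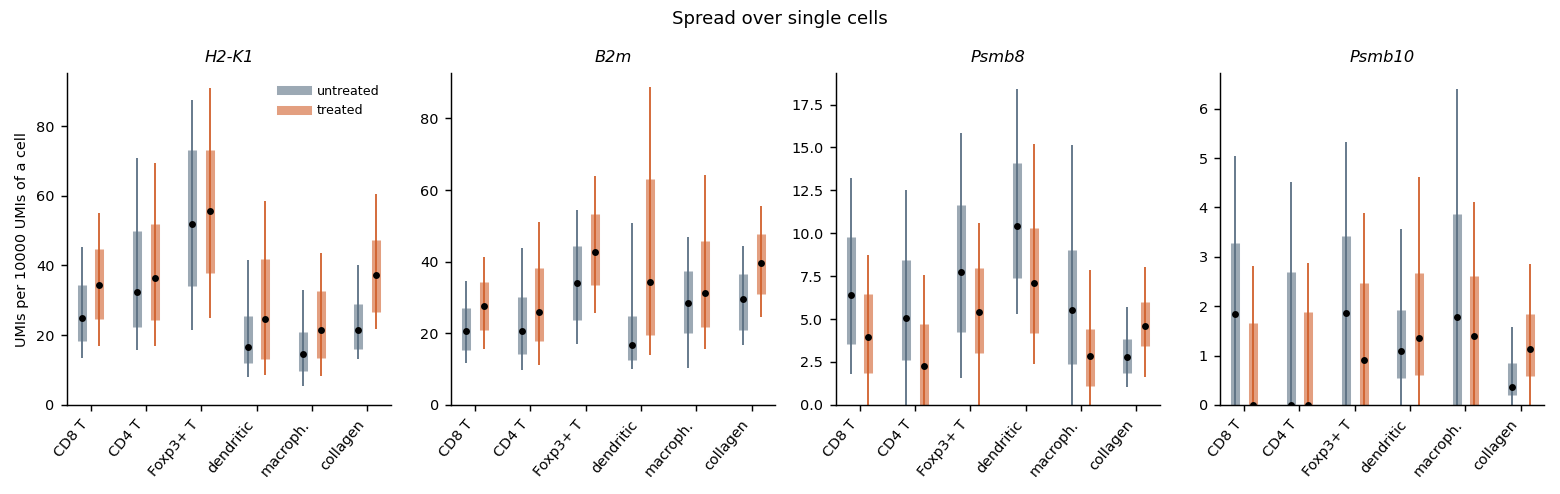
UMIs per 10000 UMIs of a cell for H2-K1, B2m, Psmb8 and Psmb10 by gate and library: dots are medians over cells, thick bars the 25th to 75th and thin lines the 10th to 90th percentile. Cells of 1 library are not replicates. The median of Psmb8 is 6.39 in untreated and 3.97 in treated CD8 T cells, and 2.77 and 4.57 in collagen-expressing cells.

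Other genes of the pathway were counted as lists chosen with earlier results of these data known, and the genes named from them in collagen-expressing cells, and Psmb5 and Rfx5, were picked after their values were seen. In CD8 T cells 0 of 23 other proteasome subunits were higher, beside 31.4% of all genes, and 5 were lower, near the share of 19.0% of all genes, with a median log2 ratio of -0.43 beside 0.13 for all genes. Among the 5 Psmd4, a ubiquitin receptor of the proteasome, was at 151 and 91.8 CPM, and the core subunit Psma2 at 332 and 206 CPM. Of the proteasome activators Psme1 and Psme2, which interferon also induces, Psme1 was at 566 and 318 CPM and Psme2 at 447 and 249 CPM. In collagen-expressing cells 0 of the 23 subunits were higher and 0 were lower, beside 27.9% and 10.2% of all genes, with a median of -0.14 beside 0.22 for all genes. The 10 genes themselves had a median log2 ratio of -0.06 in CD8 T cells, -0.10 in CD4 T cells, -0.13 in Foxp3-positive T cells, 0.37 in dendritic cells, 0.11 in the 9 tested in macrophages and 0.88 in the 9 tested in collagen-expressing cells. For all genes the medians were 0.13, 0.02, -0.01, -0.01, -0.04 and 0.22 in the same order.

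Of 7 peptide loading genes outside the 10, 2 were higher and 0 were lower in CD8 T cells, beside 31.4% and 19.0% of all genes, so the higher count was near that background. The 2 were the chaperone Hspa5, at 381 and 833 CPM, and Sec61a1, a subunit of the translocation channel, at 62.1 and 99.8 CPM. In collagen-expressing cells 6 of 7 were higher and 0 were lower, beside 27.9% and 10.2% of all genes, with Tapbpl, a relative of tapasin that edits peptides, at 16.2 and 33.2 CPM and the chaperone Calr at 615 and 935 CPM. Of 10 nonclassical and other class I genes, 1 was higher and 3 were lower in CD8 T cells, beside the same 31.4% and 19.0%. The higher one was H2-Q6, at 205 and 373 CPM, with the same uncertainty about shared reads. Fcgrt, which encodes the neonatal Fc receptor, was lower, at 24.5 and 8.43 CPM (0.34, 0.30 to 0.39), and H2-T24 was lower, at 2.02 and 0.80 CPM (0.39, 0.25 to 0.62). In collagen-expressing cells 6 of 7 were higher and 0 lower, beside 27.9% and 10.2%, among them H2-T22 at 176 and 515 CPM and H2-T23 at 66.3 and 171 CPM.

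Counts of interferon genes are given beside the shares of all genes that were higher and lower, which were 31.4% and 19.0% in CD8 T cells, 27.9% and 10.2% in collagen-expressing cells, 20.9% and 21.4% in macrophages and 19.0% and 17.0% in dendritic cells. Of 10 type I interferon response genes, 1 was higher and 6 were lower in CD8 T cells, with Ifit3 at 50.7 and 8.23 CPM and Usp18 at 34.8 and 6.72 CPM. Of 19 genes of interferon gamma signalling, 4 were higher and 3 lower there, shares below those of all genes, with the kinase Jak2 at 23.5 and 51.3 CPM, the ligand Cd274 at 21.1 and 38.4 CPM, and the receptor subunit Ifngr2 at 13.3 and 3.73 CPM. In collagen-expressing cells 9 of 17 interferon gamma genes were higher and 1 lower, with the transcription factor Irf1 at 47.4 and 78.9 CPM, and 6 of 10 type I response genes were higher and 0 lower. In macrophages 8 of 18 interferon gamma genes were higher and 4 lower, with Irf1 at 53.0 and 188 CPM, while 2 of 10 type I response genes were higher and 6 lower. In the C1q-expressing macrophages described above, 3 of 9 type I response genes were higher and 1 lower. For interferon gamma genes the counts there were 7 of 16 higher and 1 lower, beside 17.6% and 21.3% of all genes. In dendritic cells 6 of 6 NF-kB genes were higher, among them the inhibitor Tnfaip3 at 41.6 and 184 CPM, 4 of 17 interferon gamma genes were higher and 2 lower, and 1 of 10 type I response genes was higher and 5 were lower. Inside the 2 kinds of dendritic cells described above the NF-kB count was smaller. Of the 6 genes, 1 was higher and 0 were lower in Fscn1 or Ccl22 cells, beside 15.0% and 14.4% of all genes. In Xcr1 or Clec9a cells 1 was higher and 1 lower, beside 15.6% and 13.1%. In CD8 T cells and in macrophages 2 of the 6 were higher and 0 lower, and in collagen-expressing cells 0 were higher and 0 lower. The higher ones were Tnfaip3, at 135 and 499 CPM in CD8 T cells and 43.2 and 124 CPM in macrophages, and Nfkb1. Nfkb1 was at 127 and 228 CPM in CD8 T cells and at 127 and 212 CPM in macrophages.

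Genes of proteins that bind class I promoters with Nlrc5 were counted too, in a list that also holds Nlrc3 and Ciita, which are not such proteins. Of 9 genes of this list in CD8 T cells, 4 were higher and 0 were lower, beside 31.4% and 19.0% of all genes, with Rfxap, a subunit of the complex that binds the X box, at 46.9 and 90.1 CPM, and Nlrc3, a relative of Nlrc5, at 26.2 and 63.0 CPM. Rfx5, the DNA-binding subunit of that complex, was at 4.68 and 4.93 CPM. In dendritic cells 1 of 8 was higher and 2 were lower, beside 19.0% and 17.0% of all genes. Of the lower ones Ciita, the class II counterpart of Nlrc5, was at 141 and 79.5 CPM, opposite in direction to Nlrc5 there. The other, Nfyb, had 147 and 18 UMIs, and its ratio of 0.63 had an interval of 0.36 to 1.03.

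Across the 12 gate and library values each gene had its own order. The highest level of H2-K1 was in treated and untreated Foxp3-positive T cells, at 4980.4 and 4913 CPM, whose intervals overlapped, and the lowest in untreated macrophages. The highest levels of B2m were in treated Foxp3-positive T cells and treated collagen-expressing cells, at 4157 and 4087 CPM, also with overlapping intervals. Psmb8 and Psmb9 were highest in untreated dendritic cells, apart from the next level beyond their intervals. Tap1 was also highest there, Tap2 in untreated Foxp3-positive T cells, Tapbp and Nlrc5 in treated dendritic cells, and Psmb10 in untreated CD8 T cells. The intervals overlapped with those of the next level for Tap1 (untreated Foxp3-positive T cells), Tap2 (treated Foxp3-positive T cells), Tapbp (treated macrophages) and Nlrc5 (treated CD8 T cells). The highest Psmb10 levels, in untreated CD8 T cells, Foxp3-positive T cells and macrophages, were not apart beyond their intervals. Untreated collagen-expressing cells had the lowest level of 7 of the 10 genes, the exceptions being H2-K1, H2-D1 and B2m. Among 4776 other genes compared, those whose levels over these 12 values were most like the mean of the 10 included Cyb5a, Psme2, Pcyt1a and Srrm1, with Pearson correlations of 0.88, 0.83, 0.82 and 0.82. The 12 values share libraries and depth, so these correlations are a description.

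**Figure D5:**
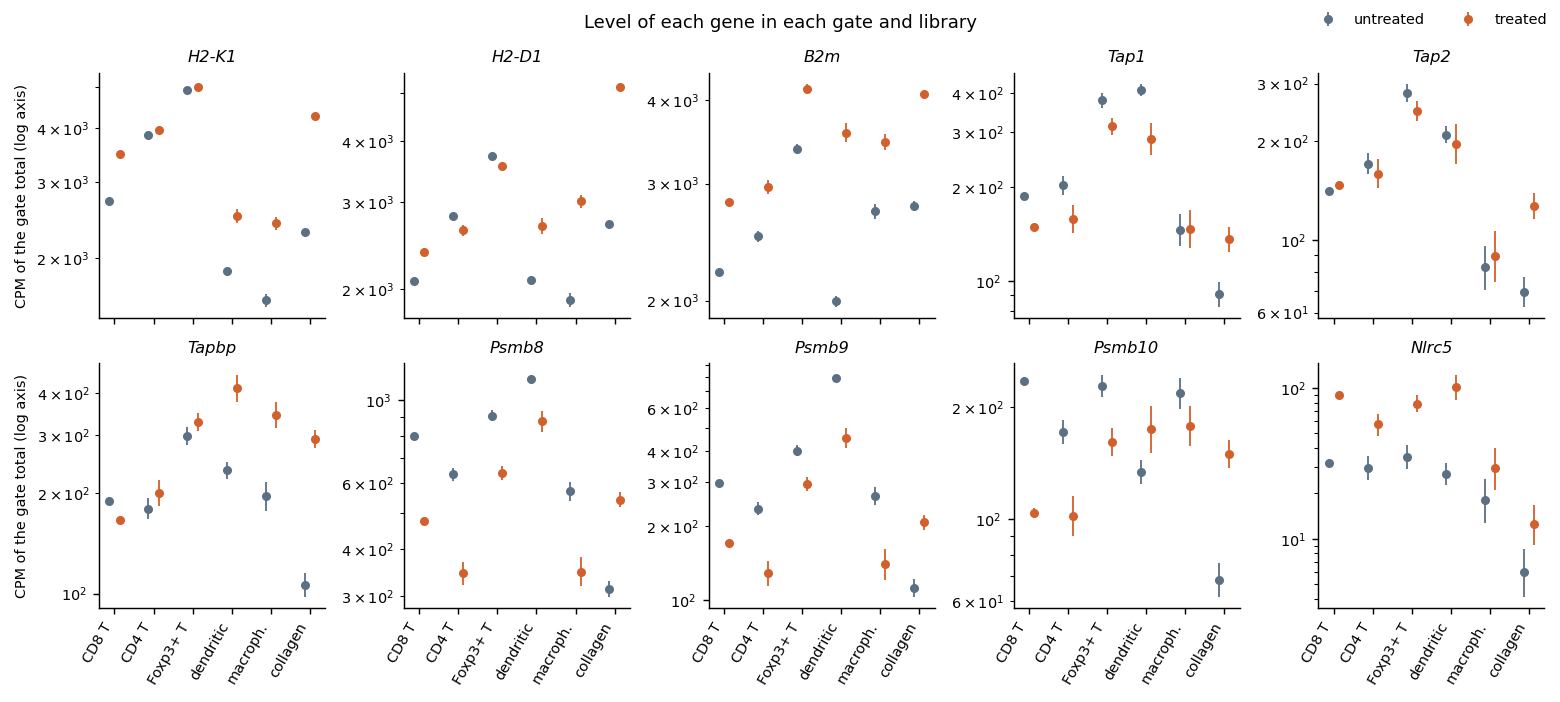
CPM of each gene in each gate and library on log axes that differ between panels, with 95% Poisson intervals. Nlrc5 is higher in the treated library in every gate, and Psmb8 is lower in treated cells of all gates but the collagen-expressing cells.

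Part of every ratio depends on the total to which it is scaled. Ribosomal protein genes took 36.6% of untreated and 29.9% of treated UMIs in CD8 T cells, and the median gene with at least 50 UMIs in each library had a log2 ratio of 0.12 in CD8, 0.16 in CD4 and 0.02 in Foxp3-positive T cells, 0.17 in dendritic cells, 0.10 in macrophages and 0.25 in collagen-expressing cells. With that median set to 0, Tap2 in CD8 T cells, H2-K1 and Tapbp in CD4 T cells and Tap1 in macrophages turned from slightly higher to lower, at log2 ratios of -0.05, -0.12, -0.002 and -0.09, none of them counted as apart in either scaling. The share of all genes counted as apart that were higher was 62.3% in CD8 T cells, 57.6% in CD4 T cells, 52.8% in dendritic cells and 73.2% in collagen-expressing cells. With the median set to 0 it was 53.0%, 42.2%, 35.4% and 49.8%, and without ribosomal and mitochondrial genes in the total it was 49.5%, 44.6%, 47.4% and 60.5%. Under these scalings the 10 genes kept 1 higher and 3 lower in CD8 and in CD4 T cells, and 6 and 7 higher in collagen-expressing cells.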

How the data were processed

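Single-cell libraries were made with Chromium Single Cell 3′ v3 chemistry, which counts 1 end of each transcript, per the labels' protocols. Cell Ranger and Seurat are named in the submitters' processing notes without a role, as is the build GRCh38, although the gene symbols are mouse symbols, so no coordinates were taken from the files. The deposited values are natural log values, ln(1 + UMIs per 10000 UMIs of the cell). Each cell's smallest step gave back its UMI counts, and 38204229 of 38204229 values above 0 came out whole within 0.01. Libraries were told apart by the suffix of the cell names.

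The filter of 10% mitochondrial UMIs left out 216 untreated and 358 treated cells, and that of 200 genes none. T cell gates needed a T cell UMI (Cd3d, Cd3e, Cd3g, Trac) and a UMI of Cd8a or Cd8b1 (CD8), Cd4 (CD4) or Foxp3, none of the other classes' markers (Cd4 was allowed in Foxp3-positive cells), and at most 2 UMIs of each other lineage. The other gates needed at least 4 UMIs over at least 2 genes of their own set, more than of the other sets, and at most 2 T cell and 2 B cell UMIs. No doublet caller was run, and cells past these limits fell in no gate. UMIs were summed per gate and library and divided by the gate total (CPM), with 95% intervals that were exact Poisson for levels, conditional binomial for ratios and Clopper-Pearson for shares. UMIs come from amplified libraries, and all intervals cover counting error only. With 1 library per group no p-value was computed. The recovery and the intervals were tested on simulated data.

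The 10 genes, the lists and the gates were chosen with earlier results of these data known. Named were the 10 genes, the 2 highest and 2 lowest genes of each list at least 1.5-fold apart with at least 50 UMIs in CD8 T cells, dendritic cells or macrophages, and the 5 genes whose pattern was most like the mean of the 10, of which 4 are given. A finer split of CD8 T cells is not reported here. Alternatives changed the cell filters, gates, CPM total, scaling, cell weights and depth. Tools were matplotlib 3.10.9, pandas 2.3.3, scipy 1.17.1, numpy 2.4.6 and Python 3.11.15.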

Additional observations from a re-analysis of the deposited data

Results flagged for a closer look

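The ratios of the inducible proteasome subunits differed in direction between collagen-expressing cells, where they were above 1, and at least 1 other gate. Psmb10 was above 1 in dendritic cells too. In collagen-expressing cells Psmb8 turned to a log2 ratio of -0.43 without the 5% of cells with the most UMIs. Psmb10 turned to -0.0077 there with cells thinned to 2000 UMIs, a value from only 0.128 and 0.127 UMIs per cell in 94 and 63 cells. The log2 ratio of treated over untreated for Psmb8 was 1.67 higher in collagen-expressing cells than in CD4 T cells. For Psmb9 it was 1.79 higher in collagen-expressing cells than in macrophages, and for Psmb10 it was 2.31 higher in collagen-expressing cells than in CD8 T cells. Each group was 1 library, so these differences between gates were not tested.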

How the results depend on the processing

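Of 25 ratios at least 1.5-fold apart, 349 values under alternatives were computed, of which 344 kept their direction and 295 stayed at least 1.5-fold apart. The 5 that reversed were all in collagen-expressing cells. Psmb10 was at a log2 ratio of -0.0077 with cells thinned to 2000 UMIs, which left 0.128 and 0.127 UMIs of it per cell. Without the 5% of cells with the most UMIs, which left 18 and 12 cells, H2-K1 was at -0.051, H2-D1 at -0.54, Tap2 at -1.75 and Psmb8 at -0.43. Under that setting the counts of genes apart were 1 in collagen-expressing cells (7 as reported), 3 in macrophages (5 as reported) and 3 in Foxp3-positive T cells (1 as reported). A gene with under 50 UMIs in each library could not be counted there. In macrophages the count was also 3 with 0 UMIs of other lineages allowed, with no limit on them, without ribosomal and mitochondrial genes in the total, and with the median of ratios as scaling. In Foxp3-positive T cells it was 2 with the mean CPM of each cell, 2 with thinned cells and 3 without cycling cells. With differences of mean deposited natural log values, which understate the change of low genes, the counts were 2 in CD8, 1 in CD4 and 0 in Foxp3-positive T cells, 2 in dendritic cells and 2 in collagen-expressing cells. Thinned collagen-expressing cells gave 2. Either dendritic subset, chosen after the data were seen, gave 1 (4 as reported). Apart from the shift with fewer cells or UMIs, the cause was not tested. Leaving out the 35 shared barcodes moved no count past 1.5 times. No paired analysis was possible because each group was 1 library. Depth limits Nlrc5 most, with under 50 UMIs in macrophages and in collagen-expressing cells.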
